A study of Mus musculus with 6 samples.

Results

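Motor proteins, centrosome components and cytoskeleton genes were examined in activated CD4+ T cells with and without the histone demethylase UTX. The members were the 55 genes, of 4162 in the deposited table, whose symbols belong to the kinesin, myosin, dynein, tubulin, Cep, neuron navigator, actinin, Arp2/3 and actin-related, capping protein, coronin, filamin, spectrin, septin, tropomyosin, WAVE, formin, talin or vimentin families. The rule uses symbols and not counts, but the families were picked with earlier results of these data known. The groups were WT mice on the B6 background and B6 mice labelled UTX TCD, which lack UTX in T cells only. Each group had 3 mice. In both groups naive CD4+ T cells were isolated from the spleen with magnetic beads and stimulated for 48 h on plates coated with anti-CD3 in the presence of soluble anti-CD28, so no resting cells were compared. Which Cre line was used, which exons were deleted and how old the mice were is not stated in the labels. The comparison asks which of these genes change in T cells that lack UTX.

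Kinesins and cytoplasmic dynein carry cargo along microtubules, which are polymers of alpha- and beta-tubulin that grow from gamma-tubulin at the centrosome. Myosins move on actin filaments, which the Arp2/3 complex and formins nucleate, capping proteins and coronins remodel, and filamins and actinins cross-link. In a T cell that meets antigen, the centrosome moves toward the contact site and actin flows through the immune synapse. UTX, encoded by Kdm6a, removes methyl groups from lysine 27 of histone H3, a mark of silenced genes.

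The table holds only part of the transcriptome. The annotation used here, GENCODE M21 on GRCm38, has 235 protein-coding genes with symbols of this kind, and 54 of them are in the table. The other member, Cep83os, is a noncoding RNA that shares only its symbol stem with a centrosomal protein. The other 181 genes, among them every septin and every gamma-tubulin complex protein, were not analysed here. Of 4118 genes tested, 20 had a log2 fold change within 0.1 of 0, and no member did. The rows of the table thus follow the genotype difference, so that shares of changed genes describe the table and not the transcriptome. Column totals were 8363326 to 10288306 counts. CPM (counts scaled to a common library total) refer here to the listed genes alone, with TMM factors that align the bulk of the genes between libraries, so they exceed CPM taken over all genes. UTX TCD replicate 2 lay at 42.9 on the first principal component, the other UTX TCD libraries at 18.9 and 24.5 and the WT libraries between -31.6 and -24.8. Kdm6a, the targeted gene, had 286, 281 and 281 CPM in WT and 188, 207 and 179 CPM in UTX TCD libraries. Its log2 fold change was -0.56 ± 0.09 (edgeR adjusted p = 0.0029). Counts are per gene, so deleted exons could not be seen apart from the rest, and the source of the remaining counts was not tested. Xist also differed between the groups. Whether the sex of the mice was balanced between them was not tested, and the members Flna and Dynlt3 lie on chromosome X. Marker lists of other cell types were thinly represented, with 3 of 7 CD8 T cell and NK genes (summed level 34.6 to 72.2 CPM in WT and 57.1 to 109.7 CPM in UTX TCD libraries), 2 of 10 B cell genes (437 to 533 and 478 to 770.1 CPM), 2 of 16 myeloid and dendritic genes (22.6 to 26.4 and 0.846 to 1.93 CPM), 1 of 10 stromal and endothelial genes (113 to 138 and 206 to 369 CPM) and 0 of 9 erythroid and platelet genes. Of the 12 T cell markers 4 are in the table (3705 to 3962 and 3994 to 4966 CPM), and Cd3e and Cd4 were not analysed here. Of the 4 T cell genes, Cd28 and Cd2 rose from 982 ± 123 to 1747 ± 110.0 and from 553 ± 59.4 to 1186 ± 424 CPM, Thy1 fell from 809 ± 85.1 to 56.8 ± 18.3 CPM, and Lck did not pass, with 1507 ± 24.5 and 1375 ± 36.6 CPM (mean ± SD, n = 3). The myeloid genes Fgr and Cd86 fell from 18.0 ± 0.929 to 0.716 ± 0.451 and from 6.88 ± 1.93 to 0.591 ± 0.115 CPM, and the CD8 T cell gene Cd8b1 rose from 13.0 ± 1.48 to 42.8 ± 12.5 CPM. No marker in the table was at 0 in every library, and the part of other cell types in the results below was not tested. In bulk RNA, fewer cells of a type and less RNA per cell cannot be told apart.

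More of the members were higher than lower in UTX TCD cells, led by the microtubule binder Nav1 and the motors Myo6 and Dnah8. The actinin genes Actn2 and Actn4 were lower, but neither call held in every fit with a WT library left out. At an adjusted p under 0.05 (edgeR quasi-likelihood test, adjusted over all 4118 genes), 30 of 55 members were higher (54.5%, where 41.1% of all tested genes were higher), 13 were lower (23.6%, against 27.0% of all tested genes) and 12 did not pass. Among them 10 were higher by at least 2-fold (18.2%, against 12.9%) and 2 were lower by at least 2-fold (3.64%, against 6.63%). The share of genes whose groups did not overlap, 48 of 55 or 87.3%, was near the 85.8% of all tested genes. The median log2 fold change, given throughout as UTX TCD over WT, was 0.33 over the members and -0.15 over all tested genes. The members together took up 1.38% ± 0.026 (SD, n = 3) of the listed counts in WT and 1.60% ± 0.043 in UTX TCD libraries, with no overlap (exact two-sided permutation test, p = 0.10, the smallest that 3 against 3 can give). This share holds the same rises that are counted above, in rows that follow the genotype difference, so it is no separate support.

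With each library left out in turn, 16 of the 43 called members passed every time, 15 of them higher and 1 lower. Without WT replicate 1, 2 or 3 the counts were 18 higher and 2 lower, 16 and 1, and 24 and 3. Over all tested genes, 1692 higher and 1111 lower calls became 812 and 402, 730 and 351, and 1195 and 544 in the same 3 fits. Without UTX TCD replicate 2, which held the highest UTX TCD value of 19 of the 30 higher members and the lowest of 11 of the 13 lower members, they were 30 and 17. Under TMM 69.8% of the called members were higher. This share was 81.1% under upper-quartile scaling, with 30 higher and 7 lower, and 58.3% under gap-centred scaling, which sets the emptiest point between falling and rising genes to 0, with 28 and 20. Over all called genes the share moved likewise, from 60.4% to 70.6% and 45.8%. With p-values adjusted as if all annotated protein-coding genes had been tested, 15 members were higher and 1 lower. No member changed direction under any of the 14 alternatives run. Values below are in the order of replicates 1, 2 and 3. A value in parentheses is the log2 fold change ± its standard error with edgeR's adjusted p, or, where a library is left out, the log2 fold change without it. A mean CPM is given ± SD over 3 libraries.

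**Figure D1:**
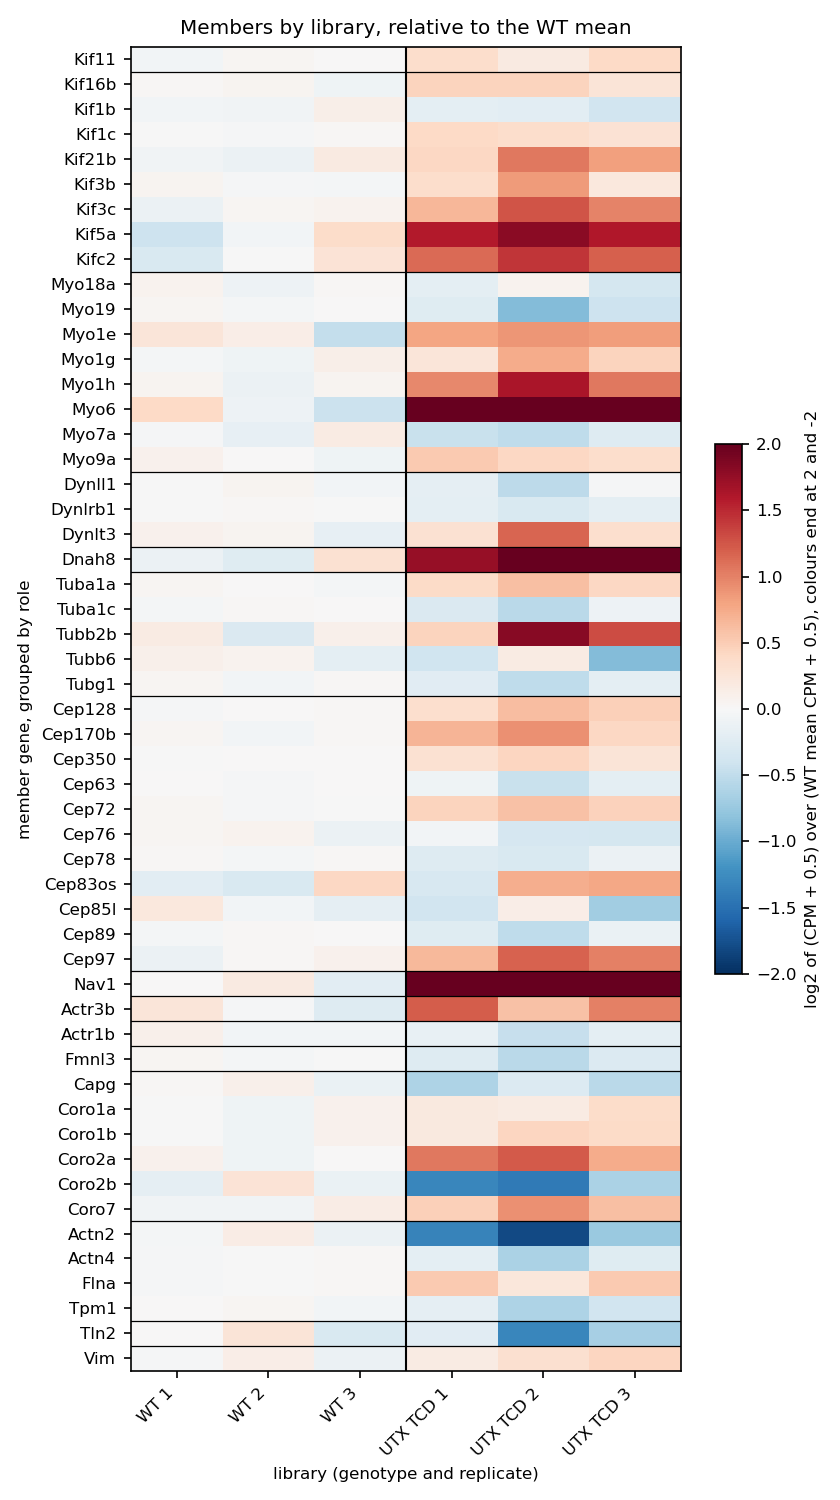
Level of 53 members (rows, grouped by role, with lines between roles) in each of the 6 libraries (columns), as log2 of CPM plus 0.5 over the WT mean plus 0.5. Colours end at -2 and 2, which Myo6 and Nav1 exceeded in all UTX TCD libraries and Dnah8 in replicates 2 and 3. The WT columns are nearly uniform, and UTX TCD replicate 2 holds many of the strongest colours.

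The largest rises were those of Nav1, Myo6 and Dnah8, which were scarce in WT cells. Nav1 encodes neuron navigator 1, a protein that binds the growing ends of microtubules. It had 14, 15 and 10 counts in the WT libraries and 143, 197 and 208 counts in the UTX TCD libraries, or 1.39, 1.63 and 1.14 against 17.2, 20.8 and 21.7 CPM. The lowest UTX TCD library was 10.6 times as high as the highest WT library, and the log2 fold change was 3.83 ± 0.26 (edgeR adjusted p = 3.6e-04). Myo6, the myosin that walks toward the minus end of actin filaments and serves in endocytosis, had 9.71, 6.72 and 5.22 CPM in WT and 114, 105 and 72.4 CPM in UTX TCD libraries (3.74 ± 0.27, adjusted p = 4.7e-04). UTX TCD replicate 3 was the lowest of its group and still 7.46 times as high as the highest WT library. Dnah8, a dynein heavy chain of the axoneme, the core of cilia and sperm tails, had 30.1, 27.7 and 40.8 CPM in WT and 111, 145 and 163 CPM in UTX TCD libraries (2.09 ± 0.20, adjusted p = 6.6e-04). Nav1 lies on chromosome 1 from 135434580 to 135607295, Myo6 on chromosome 9 from 80165031 to 80311729 and Dnah8 on chromosome 17 from 30624354 to 30877365 (GRCm38). All 3 calls held with any 1 library left out. The exons of Nav1 overlap those of an antisense gene over 3.4% of their length. Those of Dnah8 overlap AC165951.2 over 1.7% and 1700097N02Rik over 0.8%, both on the other strand. The gene 1700097N02Rik is itself in the table.

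**Figure D2:**
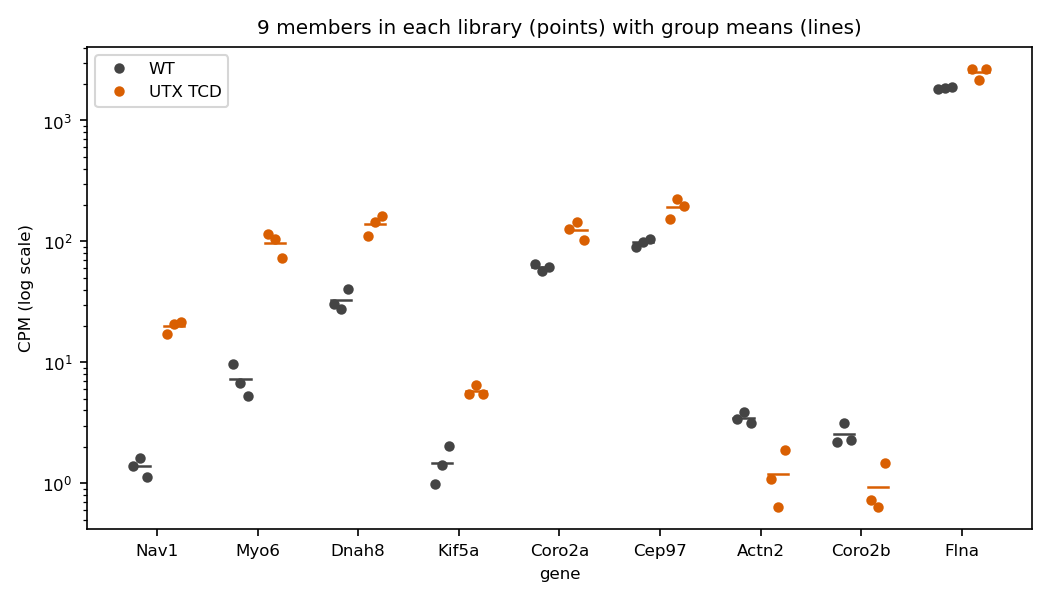
CPM on a log scale of 9 members in each WT (grey) and UTX TCD (orange) library, with lines at the group means. For each of these genes the groups do not overlap, with the widest gaps for Nav1 and Myo6 and a narrower one for Flna.

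The sequence before the start of the most changed members is given because UTX acts on chromatin at promoters and enhancers. The study's title also concerns hypoxia, whose transcription factor HIF binds the core ACGTG or GCGTG in DNA. Only the form ACGTG was searched for, and GCGTG was not counted. The windows are the 250 bases before the RefSeq transcript start (GRCm38.p6), 5′ to 3′ on the gene's strand, with ACGTG and its reverse complement CACGT in capitals. They are those of the 3 members with the largest rise and of Actn2, the member with the largest fall.
Nav1, chr1:135585356-135585605, minus strand: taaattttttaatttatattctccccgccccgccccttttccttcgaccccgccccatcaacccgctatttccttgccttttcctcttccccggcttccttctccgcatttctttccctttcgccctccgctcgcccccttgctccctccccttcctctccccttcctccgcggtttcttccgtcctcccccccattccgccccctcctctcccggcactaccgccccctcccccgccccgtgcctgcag
Myo6, chr9:80164784-80165033, plus strand: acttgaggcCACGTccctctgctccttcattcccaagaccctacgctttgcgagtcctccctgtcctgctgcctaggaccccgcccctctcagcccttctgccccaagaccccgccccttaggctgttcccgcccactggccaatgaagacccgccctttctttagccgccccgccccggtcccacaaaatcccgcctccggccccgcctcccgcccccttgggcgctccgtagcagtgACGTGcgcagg
Dnah8, chr17:30626686-30626935, plus strand: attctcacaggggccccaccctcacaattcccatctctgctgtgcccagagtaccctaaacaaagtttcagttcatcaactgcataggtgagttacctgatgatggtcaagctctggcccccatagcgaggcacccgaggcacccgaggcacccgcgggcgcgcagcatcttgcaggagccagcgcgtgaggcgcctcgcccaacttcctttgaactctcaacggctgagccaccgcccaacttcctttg
Actn2, chr13:12340733-12340982, minus strand: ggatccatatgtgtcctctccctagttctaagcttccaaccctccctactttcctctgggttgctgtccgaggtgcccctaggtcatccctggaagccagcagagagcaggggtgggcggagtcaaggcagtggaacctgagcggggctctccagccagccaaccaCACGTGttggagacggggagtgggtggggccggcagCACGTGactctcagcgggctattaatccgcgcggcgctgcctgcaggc
The Myo6 window held 2 matches and the Actn2 window 4, which overlap in pairs as the palindrome CACGTG, the E-box bound by basic helix-loop-helix factors. The Nav1 and Dnah8 windows held no ACGTG on either strand, and both lie inside the GENCODE gene, whose longest form starts further upstream. A promoter was matched for 42 of the 55 members, and 10 of these (23.8%) held a match on either strand. This was close to the 25.2% of the 3183 tested genes with a promoter and above the 18.5% of all 27025 genes with RefSeq promoters. By call, 6 of 23 higher, 1 of 10 lower and 3 of 9 other members held a match. A match is a run of letters and not a bound site.

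Of the 9 kinesin genes, 8 rose and 1, Kif1b, fell, in a table where 41.1% of all tested genes were higher and 27.0% lower. Kif11, the motor that pushes spindle poles apart in mitosis, was the most abundant kinesin per kilobase of exon, with 138 CPM per kilobase in WT and 172 in UTX TCD cells. Its level was 996, 1062 and 1036 CPM in WT and 1322, 1166 and 1365 CPM in UTX TCD libraries (0.32 ± 0.09, edgeR adjusted p = 0.019). The groups did not overlap, and the call was lost without WT replicate 1 (0.29), 2 (0.33) or 3 (0.32) or UTX TCD replicate 3 (0.27). No other mitotic kinesin of the 12 in the annotation was in the table. Kif21b, a motor that restrains microtubule growth, had 319.6, 311 and 379.8 CPM in WT and 447, 702 and 595 CPM in UTX TCD libraries (0.79 ± 0.17, adjusted p = 0.0082). UTX TCD replicate 2 was the highest and replicate 1 the lowest of its group, all above every WT library.

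The kinesin-2 genes Kif3b and Kif3c and the scarce Kif5a and Kifc2 also rose. Kif3b, a subunit of the kinesin-2 motor that builds cilia and carries vesicles, had 239.7, 228 and 226 CPM in WT and 295, 419.7 and 267 CPM in UTX TCD libraries (0.50 ± 0.16, adjusted p = 0.029). Replicate 2 stood above the other UTX TCD libraries, and without it the log2 fold change was 0.27 and still called. The call was lost without WT replicate 1 (0.52), 2 (0.49) or 3 (0.48). Kif3c, the alternative kinesin-2 subunit, had 20.2, 22.6 and 23.2 CPM in WT and 34.9, 53.5 and 44.1 CPM in UTX TCD libraries (1.01 ± 0.18, adjusted p = 0.0051), and 35.3% of its exon length is shared with an antisense gene. Kif5a, the kinesin-1 heavy chain best known from neurons, went from 10, 13 and 18 counts to 45, 61 and 53 counts (1.97 ± 0.34, adjusted p = 0.0046). Kifc2, a kinesin with its motor at the C terminus, went from 16, 19 and 23 to 43, 61 and 52 counts (1.45 ± 0.30, adjusted p = 0.0080). At these counts the groups were still apart, and the calls of Kif21b, Kif3c, Kif5a and Kifc2 held with any 1 library left out.

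The kinesin-3 motors, which carry vesicles and endosomes, split by gene. Kif16b and Kif1c rose, from 116 ± 6.07 to 152 ± 11.1 CPM (0.38 ± 0.09, edgeR adjusted p = 0.012) and from 220.0 ± 4.18 to 279.7 ± 11.2 CPM (0.35 ± 0.08, adjusted p = 0.0095). Kif1b, which carries mitochondria and synaptic vesicle precursors, fell from 216 ± 15.4 to 180.4 ± 12.5 CPM (-0.26 ± 0.09, adjusted p = 0.038). The call of Kif16b was lost without WT replicate 1 (0.39) and that of Kif1c without WT replicate 1 (0.34) or 2 (0.33). The call of Kif1b was lost without WT replicate 1 (-0.29), 2 (-0.30) or 3 (-0.21) or UTX TCD replicate 3 (-0.21). It was also lost with RLE or upper-quartile scaling, with DESeq2 and with the replicate number as a block.

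Among 8 myosins 5 rose, 1 fell and 2 did not pass, where 41.1% of all tested genes were higher and 27.0% lower. After Myo6, the rises were in class I and class IX myosins. Myo1g, a class I myosin of blood cells that links actin to the plasma membrane, was the most abundant myosin per kilobase, with 62.5 CPM per kilobase in WT and 87.7 in UTX TCD cells. Its levels were 423, 408 and 474 CPM in WT and 516, 725 and 589.6 CPM in UTX TCD libraries (0.49 ± 0.13, edgeR adjusted p = 0.018), highest in UTX TCD replicate 2 and with the call lost without WT replicate 1 (0.47) or 2 (0.44). Myo1e, which works in endocytosis, had 41.9, 39.2 and 25.4 CPM in WT and 61.8, 65.8 and 63.9 CPM in UTX TCD libraries (0.85 ± 0.19, adjusted p = 0.0096). WT replicate 3 was low for this gene, and the UTX TCD libraries were close together. Myo9a, a class IX myosin, had 97.6, 92.4 and 86.6 CPM in WT and 132, 123 and 118 CPM in UTX TCD libraries (0.43 ± 0.09, adjusted p = 0.0085), and like Myo1e kept its call with any 1 library left out.

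The other myosins were scarcer or lower. Myo1h was nearly silent, with 8, 6 and 7 counts in WT and 16, 32 and 20 counts in UTX TCD libraries (1.71 ± 0.41, edgeR adjusted p = 0.012), and 25.8% of its exon length overlaps Kctd10 on the other strand. Its call was lost without WT replicate 2 (1.62). Myo19, a motor on mitochondria, fell from 116, 111 and 114 CPM to 96.3, 62.1 and 85.4 CPM (-0.48 ± 0.16, adjusted p = 0.029). UTX TCD replicate 2 was the lowest library, and the call was lost without WT replicate 1 (-0.47), 2 (-0.51) or 3 (-0.49). Myo7a, known from sensory hair cells, was at -0.41 ± 0.16 (adjusted p = 0.054) with groups that did not overlap, and passed in none of the leave-outs. Myo18a, a myosin of the Golgi, was at -0.15 ± 0.12 (adjusted p = 0.26), and without UTX TCD replicate 2 it passed at -0.28.

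Dynein light chains differed among themselves. Dynlrb1, a light chain that joins dynein to cargo, was the second most abundant member per kilobase in WT cells, with 284 CPM per kilobase. It fell from 286, 290.2 and 284 CPM to 250.4, 233 and 251 CPM (-0.23 ± 0.08, edgeR adjusted p = 0.032), the smallest change that was called. The call was lost without WT replicate 1 (-0.23), 2 (-0.22) or 3 (-0.24) or UTX TCD replicate 3 (-0.25). It was also lost with RLE or upper-quartile scaling, DESeq2 or the replicate number as a block. Dynlt3, a light chain of the Tctex family, had 58.8, 57.8 and 49.4 CPM in WT and 68.8, 124 and 70.1 CPM in UTX TCD libraries (0.66 ± 0.23, adjusted p = 0.037). Its rise was mostly that of UTX TCD replicate 2, without which the log2 fold change was 0.32 and still called, and the call was lost without WT replicate 1 (0.71), 2 (0.69) or 3 (0.58). Dynll1, the LC8 light chain shared with many other complexes, was at -0.23 ± 0.13 (adjusted p = 0.13) with overlapping groups.

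Tubulin genes also went both ways, 2 of 5 higher and 2 lower, beside 41.1% and 27.0% of all tested genes. Tuba1a, an alpha-tubulin, had 143, 139.8 and 135 CPM in WT and 182, 211 and 186 CPM in UTX TCD libraries (0.47 ± 0.09, edgeR adjusted p = 0.0056) and was called with any 1 library left out. Tuba1c, its close paralog, had 155, 163 and 160.1 CPM in WT and 130.4, 109.6 and 148 CPM in UTX TCD libraries (-0.30 ± 0.12, adjusted p = 0.049). Its call was lost without WT replicate 1 (-0.32), 2 (-0.29) or 3 (-0.30) or UTX TCD replicate 1 (-0.30). It was also lost with RLE or upper-quartile scaling, DESeq2 or the replicate number as a block. The alpha-tubulin genes are near-identical in sequence, and 26.2% of the exon length of Tuba1a is shared with Gm49450, so both values are uncertain. Tubb2b, a beta-tubulin of neurons that has a near-identical copy in Tubb2a, had 59, 38 and 49 counts in WT and 60, 185 and 130 counts in UTX TCD libraries (1.38 ± 0.38, adjusted p = 0.018). UTX TCD replicate 1 was close to the WT libraries in CPM (7.23, 19.6 and 13.5 against 5.84, 4.12 and 5.56), and the call was lost without WT replicate 1 (1.47) or 2 (1.23). Tubg1, the gamma-tubulin that nucleates microtubules, fell from 248, 232 and 245 to 208, 171 and 212 CPM (-0.30 ± 0.10, adjusted p = 0.035), and its call was lost without WT replicate 1 (-0.28), 2 (-0.33) or 3 (-0.29) and with RLE or upper-quartile scaling or DESeq2. Tubb6 was at -0.31 ± 0.26 (adjusted p = 0.27) with overlapping groups, and passed at -0.63 without UTX TCD replicate 2.

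**Figure D3:**
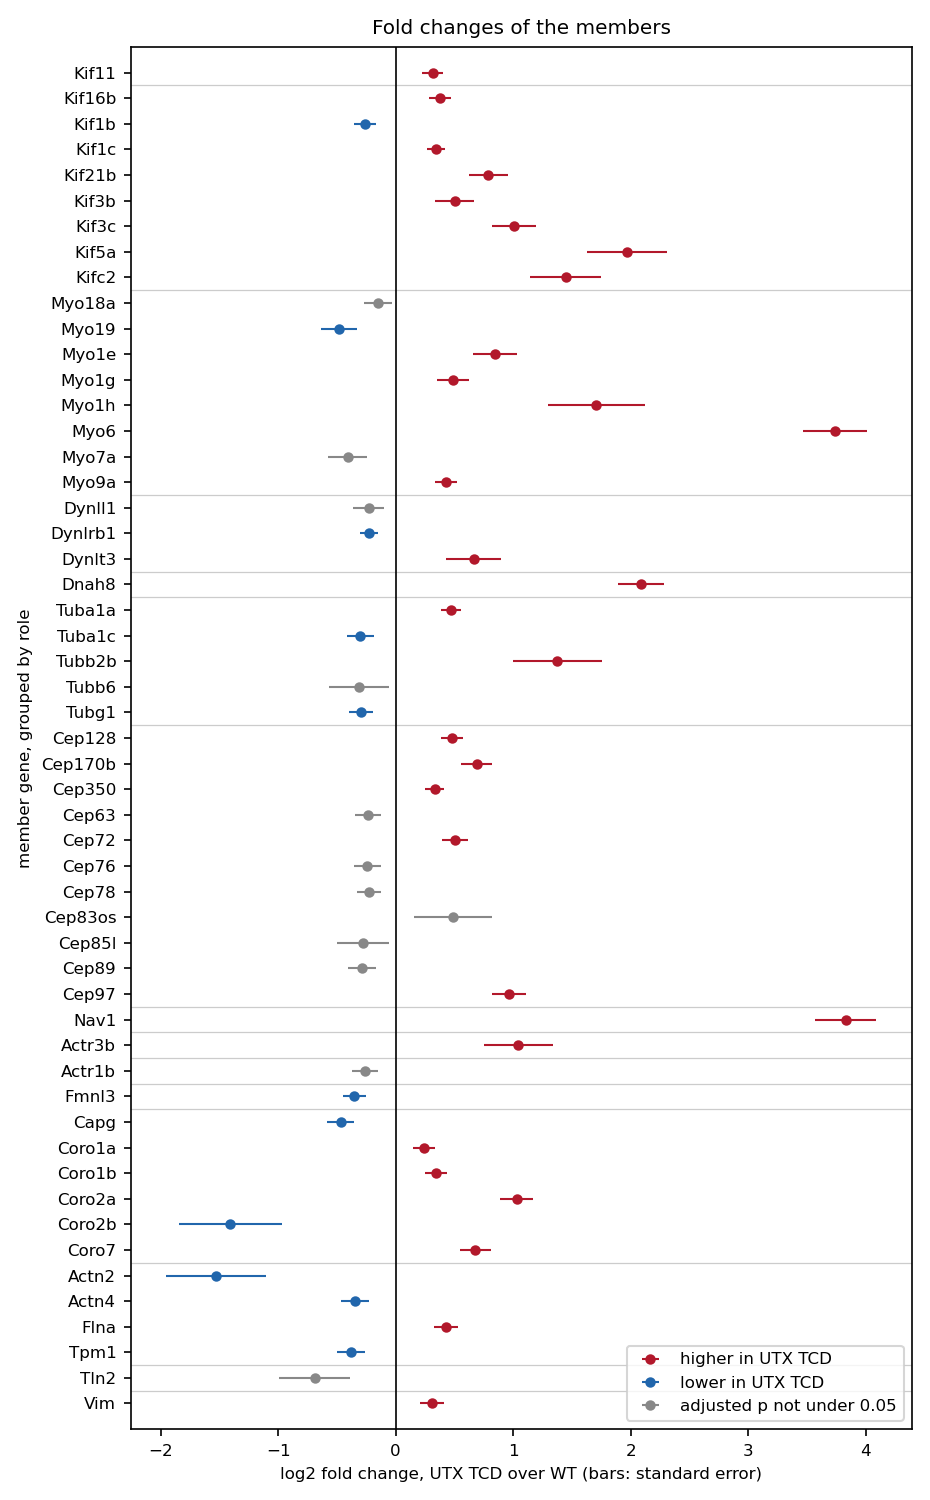
log2 fold change of 53 members with its standard error, grouped by role. Red points are called higher, blue points lower and grey points did not pass. All kinesins except Kif1b lie to the right of 0, while the actinin genes and Tpm1 lie to the left.

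Of the 12 members named Cep, 5 rose, a share near the 41.1% of all tested genes that were higher. The 3 largest changes of the group, those of Cep97, Cep170b and Cep72, were among these rises. Cep97, which caps centrioles together with CP110 and holds back cilium growth, had 90.5, 99.1 and 104 CPM in WT and 154, 223 and 197 CPM in UTX TCD libraries (0.97 ± 0.14, edgeR adjusted p = 0.0027). All UTX TCD libraries were well above the WT range. Cep170b, a relative of the centrosomal microtubule binder Cep170, had 99.5, 93.3 and 99.0 CPM in WT and 155, 185 and 130.2 CPM in UTX TCD libraries (0.69 ± 0.13, adjusted p = 0.0058). Cep128, a component of the appendages of the mother centriole, had 87.8, 89.3 and 90.7 CPM in WT and 113, 137 and 124 CPM in UTX TCD libraries (0.48 ± 0.10, adjusted p = 0.0072). The calls of Cep97, Cep170b and Cep128 held with any 1 library left out.

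Cep350, a large protein that anchors microtubules at the centrosome, had 407, 411 and 414 CPM in WT and 505, 555 and 490.2 CPM in UTX TCD libraries (0.33 ± 0.08, edgeR adjusted p = 0.013). Its groups did not overlap, and the call was lost without WT replicate 1 (0.32) or 2 (0.33). Cep72, a protein of centriolar satellites, rose from 41.5, 39.6 and 40.1 to 55.1, 61.1 and 55.7 CPM (0.50 ± 0.11, adjusted p = 0.0091), a call lost without WT replicate 2 (0.49). Cep76 was the most abundant of the group per kilobase in WT cells, with 29.8 CPM per kilobase, and like Cep63, Cep78, Cep85l and Cep89 it did not pass. These 5 genes had log2 fold changes of -0.24, -0.24, -0.23, -0.28 and -0.29, all below 0. Without UTX TCD replicate 1 Cep63 and Cep76 passed at -0.32 and -0.33, and without replicate 2 Cep85l passed at -0.55. The noncoding Cep83os was at 0.49 ± 0.33 (adjusted p = 0.19) with overlapping groups, and passed at 0.77 without UTX TCD replicate 1.

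Coronins, which bind actin filaments and direct the Arp2/3 complex and its antagonist cofilin, were higher in 4 of 5 cases. Of all tested genes, 41.1% were higher. Coro1a, the coronin of lymphocytes that naive T cells need to survive, was the most abundant member per kilobase in both genotypes, with 739 CPM per kilobase in WT and 875 in UTX TCD cells. It had 2053, 1934 and 2186 CPM in WT and 2364, 2299 and 2642 CPM in UTX TCD libraries (0.24 ± 0.09, edgeR adjusted p = 0.046). The rise was small, and the call was lost without WT replicate 1 (0.24), 2 (0.20) or 3 (0.28) or UTX TCD replicate 3 (0.18). It was also lost under gap-centred scaling and with the replicate number as a block. Coro2a had 64.6, 57.4 and 61.2 CPM in WT and 127, 144 and 103 CPM in UTX TCD libraries (1.03 ± 0.14, adjusted p = 0.0020). Coro7, a coronin of the Golgi, had 108, 108 and 126 CPM in WT and 159, 214 and 173 CPM in UTX TCD libraries (0.68 ± 0.13, adjusted p = 0.0059). The calls of Coro2a and Coro7 held with any 1 library left out. Coro1b, which acts on Arp2/3 at the cell edge, had 320.0, 303 and 343 CPM in WT and 369.9, 434 and 419 CPM in UTX TCD libraries (0.34 ± 0.09, adjusted p = 0.019), a call lost without WT replicate 1 (0.33) or 2 (0.30). It shares 13.5% of its exon length with Ptprcap on the same strand, which was at -0.19 and did not pass. Coro2b was scarce and went the other way, from 22, 29 and 20 counts in WT to 6, 6 and 14 counts in UTX TCD libraries (-1.41 ± 0.44, adjusted p = 0.026), a call lost without WT replicate 1 (-1.51), 2 (-1.23) or 3 (-1.48) or UTX TCD replicate 1 (-1.26) and with DESeq2.

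Genes that start or end actin filaments were few in the table. Actr3b, a less common form of the Arp3 subunit, had 44, 33 and 26 counts in WT and 75, 54 and 75 counts in UTX TCD libraries (1.04 ± 0.29, edgeR adjusted p = 0.019), a call lost without WT replicate 2 (1.03) or 3 (0.91). The other 9 annotated Arp2/3 genes, and with them the common subunits, were not analysed here. Fmnl3, a formin, fell from 164, 156 and 159 to 133, 110.0 and 132 CPM (-0.35 ± 0.10, adjusted p = 0.019), a call lost without WT replicate 1 (-0.34), 2 (-0.37) or 3 (-0.36). Capg, which caps the growing ends of filaments, fell from 327, 344 and 294 to 209.8, 266 and 222 CPM (-0.47 ± 0.11, adjusted p = 0.013). UTX TCD replicate 1 was its lowest library, and the call was lost without WT replicate 2 (-0.42). Actr1b, an actin-related subunit of dynactin, the dynein cofactor, did not pass at -0.26 ± 0.11 (adjusted p = 0.058) although the groups did not overlap, and passed without UTX TCD replicate 1 (-0.32) or 2 (-0.18).

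The cross-linker Flna was higher, and the actinin genes and Tpm1 were lower. Flna, the main filamin of leukocytes, which cross-links actin and binds integrin tails, had 1824, 1857 and 1895 CPM in WT and 2669, 2170.4 and 2666 CPM in UTX TCD libraries (0.43 ± 0.10, edgeR adjusted p = 0.011). Replicate 2 was the lowest of the UTX TCD libraries, and the call was lost without WT replicate 1 (0.41) or 2 (0.42). Actn4, the non-muscle actinin, had 1691, 1704 and 1742 CPM in WT and 1500.3, 1104 and 1441 CPM in UTX TCD libraries (-0.34 ± 0.12, adjusted p = 0.037). UTX TCD replicate 2 was the lowest, at -0.23 without it, and the call was lost without WT replicate 1 (-0.36), 2 (-0.35) or 3 (-0.34) and with RLE or upper-quartile scaling. Actn2, the actinin of muscle Z-discs, was scarce, with 34, 36 and 28 counts in WT and 9, 6 and 18 counts in UTX TCD libraries (-1.52 ± 0.43, adjusted p = 0.019), a call lost without WT replicate 1 (-1.55) or 2 (-1.44). Tpm1, a tropomyosin that coats actin filaments, fell from 211, 216 and 202 to 186, 137 and 162 CPM (-0.38 ± 0.12, adjusted p = 0.026), a call lost without WT replicate 1 (-0.38), 2 (-0.36) or 3 (-0.41) or UTX TCD replicate 3 (-0.38).

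Talin 2 and vimentin were the members that tie the cytoskeleton to adhesion sites and form intermediate filaments. Tln2, the less common talin of leukocytes, had 21.4, 25.5 and 17.1 CPM in WT and 18.2, 8.35 and 13.2 CPM in UTX TCD libraries and did not pass (-0.69 ± 0.30, edgeR adjusted p = 0.069), but passed without UTX TCD replicate 1 (-0.98). Vim had 675, 751 and 634 CPM in WT and 771, 854 and 924 CPM in UTX TCD libraries (0.31 ± 0.10, adjusted p = 0.031). Its groups were separated by a narrow margin, and the call was lost without WT replicate 1 (0.29), 2 (0.37) or 3 (0.25) or UTX TCD replicate 3 (0.24) and under gap-centred scaling.

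In 3 pairs of paralogs, 1 gene was called higher and the other lower, so their ratio within a library, which does not depend on scaling, moved further than either gene. These pairs were chosen after their values were seen, so the ratios are a description with no test. The ratio of Kif1c to Kif1b was 1.06, 1.04 and 0.958 in WT and 1.54, 1.51 and 1.61 in UTX TCD libraries (0.61), so that near-equal counts became unequal in all 3. Tuba1a to Tuba1c went from 0.919, 0.859 and 0.846 to 1.40, 1.93 and 1.25 (0.78), from below 1 in every WT library to above 1 in every UTX TCD library. Coro2a to Coro2b went from 29.6, 18.2 and 26.9 to 176, 227 and 70.5 (2.53), with the widest spread of the 3 and few counts of Coro2b.

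**Figure D4:**
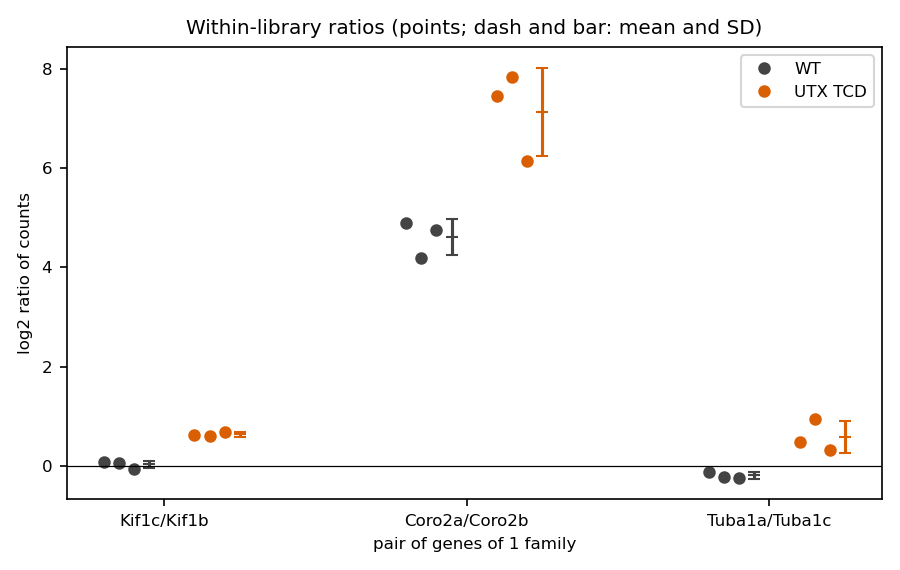
log2 ratio of the raw counts of 2 genes of a family in each WT (grey) and UTX TCD (orange) library, with the mean and SD of each group beside the points. In each of the 3 pairs every UTX TCD library lies above every WT library.

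The largest fold changes were in members with a low level in WT cells. Per kilobase of exon, 20 members had under 10 CPM in WT cells, and all 12 members called with at least a 2-fold change were among them, from 0.080 (Nav1) to 9.45 CPM per kilobase (Coro2a). The 26 members from 10 to under 100 CPM per kilobase had log2 fold changes of at most 0.97 in size. The 9 members at or above 100 CPM per kilobase, among them Coro1a, Dynlrb1, Actn4, Flna and Vim, changed by at most 0.47 in size. Levels use the union of annotated exons, and the part that the selection of the rows has in this pattern was not tested. The WT level is also the denominator of the fold change. All tested genes were not counted by level, so whether the pattern is particular to the members was not tested. The members' median coefficient of variation was 6.22% over the WT libraries and 12.7% over the UTX TCD libraries, beside 5.97% and 14.3% for all tested genes.

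**Figure D5:**
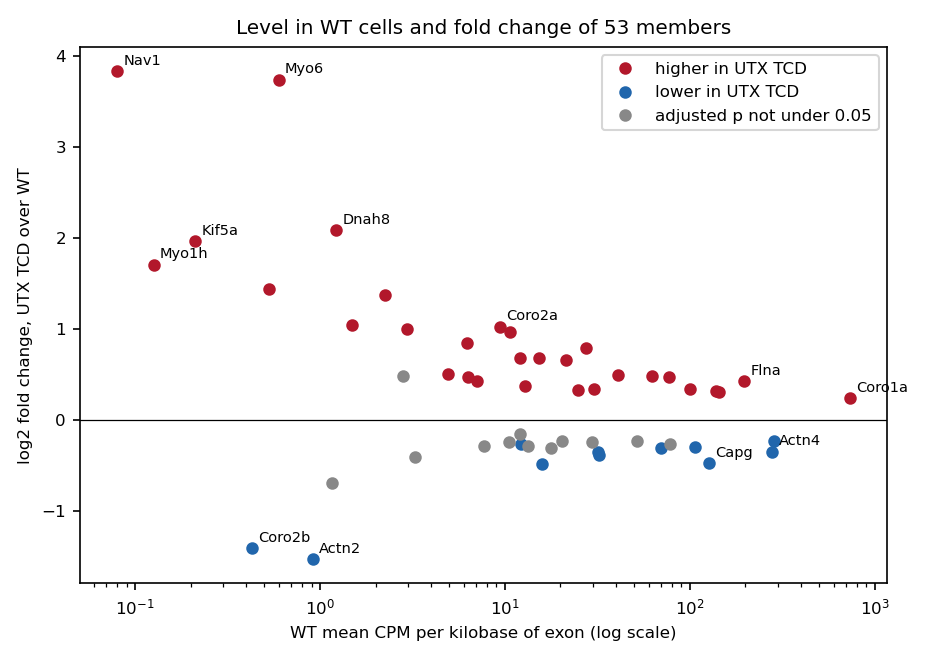
WT level in CPM per kilobase of exon (log scale) against the log2 fold change for 53 members, coloured by call. The points form a funnel, with Nav1, Myo6, Kif5a and Dnah8 at low level and large rise and Coro1a, Flna and Actn4 at high level and small change, and no point lies within 0.1 of 0.

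Other genes of the microtubule and actin systems were counted beside the 41.1% of all tested genes that were higher and the 27.0% that were lower. Whether the calls of these genes and of those in the next paragraph held with a library left out is not given. Of 11 microtubule-associated and dynactin genes (33 more on the list were not analysed here), 9 were higher and 2 lower, with a median log2 fold change of 0.58. Dst, a linker of actin, microtubules and intermediate filaments, rose from 20.0 ± 4.07 to 73.0 ± 11.0 CPM (1.87 ± 0.19, edgeR adjusted p = 8.1e-04), and Stmn1, which destabilises microtubules, from 201 ± 8.65 to 313 ± 37.4 CPM (0.64 ± 0.10). Klc3, a kinesin light chain, and Tacc1, a centrosomal and microtubule protein, rose by 1.24 ± 0.22 and 0.54 ± 0.10. The 2 lower genes, named after their values were seen, were Mapre2 and Tacc2. Mapre2, a protein of growing microtubule ends, fell from 571 ± 30.1 to 263 ± 83.3 CPM (-1.12 ± 0.22, adjusted p = 0.0061). Tacc2 was at -0.63 ± 0.24 (edgeR adjusted p = 0.048). Of 29 actin regulators outside the member families, 17 were higher, 3 lower and 9 did not pass (median 0.27). Tmsb4x, which holds actin monomers, rose from 3114 ± 139 to 4536 ± 210.3 CPM (0.54 ± 0.08, adjusted p = 0.0030), and Gmfg, which prunes actin branches, from 40.3 ± 6.35 to 102 ± 26.8 CPM (1.34 ± 0.22). Enah, which lengthens actin filaments, and Pls3, which bundles them, rose by 2.08 ± 0.37 and 2.61 ± 0.49. The 3 lower genes, named after their values were seen, were the adhesion gene Zyx, Vasp, a relative of Enah, and the actin gene Actg1. They were at -0.53 ± 0.10, -0.29 ± 0.07 and -0.33 ± 0.11 (edgeR adjusted p = 0.0058, 0.014 and 0.031). The medians stand beside -0.15 over all tested genes.

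Cell division genes stood beside Kif11 in the table, where 41.1% of all tested genes were higher and 27.0% lower. Of 5 mitotic kinase and spindle genes, Cit, Knl1 and Cenpf rose, by 0.34 ± 0.08, 0.29 ± 0.08 and 0.29 ± 0.10. Their edgeR adjusted p-values were 0.014, 0.020 and 0.030. Aurka and Zwilch did not pass at -0.18 ± 0.08 and -0.12 ± 0.08. Of 5 proliferation genes in the table, none was higher. The cyclin and kinase genes Ccne1, Ccnb1 and Cdk1 fell by 0.51 ± 0.10, 0.32 ± 0.11 and 0.28 ± 0.11. For these falls the edgeR adjusted p-values were 0.00655, 0.030 and 0.047. Rrm2 and Tyms were not past the threshold at -0.23 ± 0.10 and -0.17 ± 0.13. Of 5 centrosome genes outside the Cep series, Haus4 and Stil rose, by 0.43 ± 0.09 and 0.34 ± 0.09, and Nedd1, Haus6 and Ccp110 did not pass, at -0.21 ± 0.08, -0.17 ± 0.08 and -0.11 ± 0.09. Of 2 genes of the intermediate filament list, Plec, which links filaments to each other, rose by 0.29 ± 0.09, and Dsp, which anchors filaments at desmosomes, fell by 3.65 ± 0.42. Of the lists for mitosis, proliferation, centrosomes and intermediate filaments, 23, 19, 22 and 15 genes were not analysed here.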

How the data were processed

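RNA of CD4+ T cells from 3 WT and 3 UTX TCD mice was sequenced. The authors deposited whole-number read counts, unnormalized, in 1 column for each library, which was tied to its sample by the genotype and number in the title. The submitters' processing notes name the tools HTSeq, HISAT2 and FastQC and the build mm10, with no version. How rows were selected, which annotation was counted and whether strand was used is not stated.

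Genotypes were compared over the whole table of 4162 rows with edgeR 4.0.16 in R 4.3.3 (quasi-likelihood F test, no covariate), with TMM scaling, the default low-count filter (minimum count 10, total 15, which left out 44 rows and no member) and Benjamini-Hochberg adjustment over the 4118 genes tested. Since the rows follow the genotype difference, adjustment over them alone is lenient, and adjustment as if every annotated protein-coding gene had been tested was an alternative. The others were RLE, upper-quartile and gap-centred scaling, no filter, the replicate number as a term, each library left out, DESeq2 1.42.0 and limma-voom (limma 3.58.1). Standard errors are the absolute log2 fold change over the square root of F. Lengths and coordinates come from GENCODE M21 (GRCm38), promoters from RefSeq. The test was checked on simulated data with known changes. Between libraries of a group, a chi-square of the counts per degree of freedom was 7.08 to 11.8 (WT) and 19.9 to 87.7 (UTX TCD), so none was a duplicate.

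The members, roles and lists were chosen with earlier results of these data known. Values for every library are given for up to 4 called members of each role with the smallest p, for the 10 largest rises and falls and for the most abundant member of a role per kilobase. The counts cover all 55 members, and 2 of them and 1 list are not reported here by name. Other members are named in their role, and up to 4 called genes of each list by smallest p.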

Additional observations from a re-analysis of the deposited data

How the results depend on the processing

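The 30 higher and 13 lower members were counted again under 14 alternatives, and no member changed direction in any. Higher members numbered 28 to 30 under the other scalings and tools and without the filter, 16 to 31 when 1 library was left out, and 15 when p-values were adjusted as if all annotated protein-coding genes had been tested. Lower members varied more, with 8 by RLE scaling, 7 by upper-quartile scaling, 20 by gap-centred scaling, 8 by DESeq2, 1 to 17 when 1 library was left out, and 1 under that wider adjustment. Of the 43 called members 15 were called in the same direction under every alternative. Fits without a WT library have 2 WT libraries, and 15 calls were lost whichever WT library was left out. With the replicate number as a block (replicate block), 29 members were higher and 10 lower, and the calls of Kif1b, Dynlrb1, Tuba1c and Coro1a were lost. The labels do not say whether a number was shared between a WT and a UTX TCD mouse. Same-numbered libraries deviated together with correlations of 0.28, -0.28 and 0.18, and not every library correlated best with its own number. Deviations were taken from the mean of only 3 libraries in each group, so these correlations cannot decide whether the mice were paired. For members with under 100 counts per library, such as Myo1h, Coro2b and Actn2, counting error limits the fold change.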
